A study of Mus musculus with 12 samples.

Results

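The interaction of genotype and ventricle in the embryonic mouse heart was described, which is the amount by which the difference between Nos3-/- and wild-type embryos in the right ventricle exceeds that in the left. All 12 samples of the series entered, 12 of 12, taken by their titles. The question that the crossed design poses is whether the genotypes differ by the same amount in both chambers. The wild-type group (WT) was of the outbred strain CD1, and the Nos3-/- group (KO) carried the targeted Nos3 allele in the strain B6.129P2-Nos3tm1unc/J, so effects of the lost allele and of the strain cannot be told apart. Embryos were of embryonic day 14.5, and each genotype gave 3 pools of left ventricle (LV) and 3 of right ventricle (RV), with 15 to 30 embryos per pool. No array stands for a single embryo, and p-values measure the spread between pools. Every value below is a log2 array signal, and a group is given as its 3 arrays in replicate order. A negative interaction means that KO minus WT was lower in the right ventricle than in the left.

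Nos3 encodes the endothelial form of nitric oxide synthase, an enzyme of endocardium, vessels and some heart muscle cells. Its product nitric oxide acts largely through soluble guanylate cyclase and cGMP. Mice without it have been described with thin or noncompacted ventricular walls and with valve and septal defects. The left ventricle comes mainly from the first heart field, marked by Hand1 and Tbx5, and the right ventricle and outflow tract mainly from the second, marked by Isl1, Fgf10 and Hand2. A gene whose response to genotype depends on the chamber would be seen in the interaction and can be missed in either chamber alone.

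Working muscle markers were high on all 12 arrays: Myl2 lay between 15.01 and 15.05 and Tnnt2 between 14.46 and 14.78. One array stood apart from its label. WT_RV replicate 3 correlated at 0.9944 to 0.9961 with the WT_LV arrays and at 0.9929 to 0.9940 with the other WT_RV arrays, over all genes. Its poly-A spike-in controls averaged 8.96, against 8.05 and 8.13 in the other WT_RV arrays, 8.89 to 8.94 in WT_LV and 7.35 to 8.47 in KO. Genes with a step between the WT chambers placed it on either side. Plxnc1 and Cd93, given at the end, read like WT_LV on it, and over all genes 58.5% were nearer to the WT_LV mean than to the mean of the other WT_RV arrays. Dcpp1, Pcsk6 and Sema3c read like the right ventricle: Sema3c, a semaphorin of the outflow region, was 8.36, 8.16 and 8.35 in WT_RV against 7.30, 7.30 and 7.56 in WT_LV. Results are therefore given with and without it. The part of the labelling step that the spike-in controls follow in any result was not tested.

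At an adjusted p under 0.05, 4 of 18194 genes were called in the interaction, 0.022% of those tested, all 4 of them lower. None was called higher, 0% of genes, by limma with Benjamini-Hochberg adjustment, while 871 genes (4.79%) had a positive interaction at an unadjusted p under 0.05. A negative interaction at that level was measured for 1666 genes (9.16%), and at any p for 11004 of the 18194. In the same fit KO and WT differed for 30.9% of genes in the left ventricle (18.6% higher and 12.3% lower in KO) and for 8.19% in the right (4.61% higher and 3.58% lower). The ventricles differed for 0.984% of genes in WT and for 1.14% in KO. These shares without WT_RV replicate 3 were 9.53% and 1.76%, and the genotypes differed for 34.7% in the left and 5.31% in the right. The 4 genes were Dcpp1, Tcf24, Gpnmb and Gfra1. Without WT_RV replicate 3 the calls were 1309 genes, 7.19% of those tested, with 499 higher (2.74%) and 810 lower (4.45%), and they included all 4. All 1309 had the same sign with every array in, and 1025 had an unadjusted p under 0.05 there. Leaving out any other array gave between 2 and 10 called genes. Of the 1309, 1190 genes (90.9%) had WT_RV replicate 3 nearer to the WT_LV mean than to the mean of the other WT_RV arrays, a share that the choice of genes partly fixes. The number of genes with an interaction therefore rested on 1 library. Of the 4 genes, Dcpp1 and Tcf24 kept their calls with each of the 12 arrays left out in turn. Gpnmb kept its call in 8 of 12 cases, losing it without WT_LV replicate 2, WT_RV replicate 1, KO_RV replicate 1 or KO_RV replicate 2 (adjusted p up to 0.11). Gfra1 kept its call in 2 of 12, without WT_RV replicate 3 and without KO_LV replicate 1, and its adjusted p was up to 0.139. Their interactions stayed between -1.34 and -1.14 for Gpnmb and between -1.38 and -1.10 for Gfra1.

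**Figure D1:**
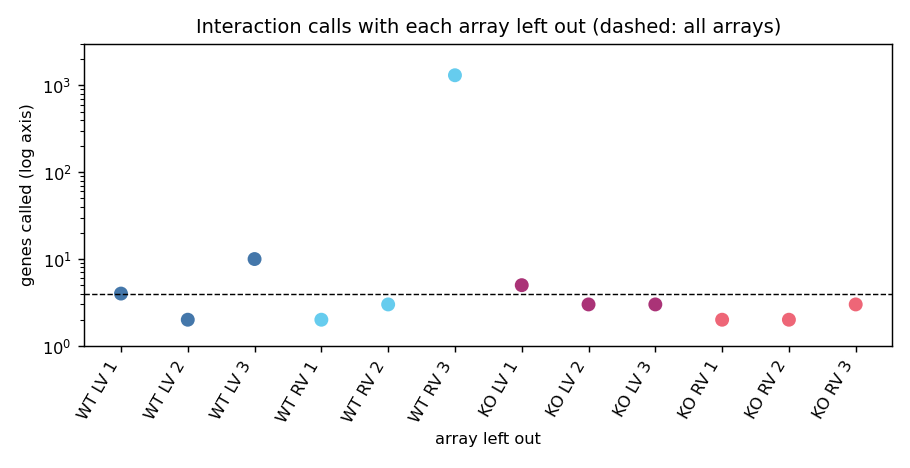
Number of genes called in the interaction (adjusted p under 0.05) with each of the 12 arrays left out, on a log axis, with points coloured by group and a dashed line at the 4 genes called with all arrays. Without WT_RV replicate 3 the calls were 499 higher and 810 lower, and without any other array they were between 2 and 10 in all.

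The promoters of the called genes are shown so that the letters before each start can be set against the expression pattern. Of the 4 genes, 3 matched the RefSeq promoter table (GRCm38.p6), and the 250 bases before the start are printed 5′ to 3′ on the gene's strand. They lie at chr17:23880626-23880875 on the plus strand for Dcpp1, chr19:58455399-58455648 on the minus strand for Gfra1 and chr6:49036268-49036517 on the plus strand for Gpnmb. Capitals mark matches, on either strand, to the E-box CANNTG, the GATA motif GATAA and the NKX motif AAGTG. The E-box is a motif of many basic helix-loop-helix factors, and whether Tcf24 binds it was not tested.
Dcpp1: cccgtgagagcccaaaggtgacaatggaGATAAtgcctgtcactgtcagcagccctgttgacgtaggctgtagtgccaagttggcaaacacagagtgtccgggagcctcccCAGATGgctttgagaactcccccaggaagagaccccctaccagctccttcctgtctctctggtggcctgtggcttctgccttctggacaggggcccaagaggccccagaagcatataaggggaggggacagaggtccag
Gfra1: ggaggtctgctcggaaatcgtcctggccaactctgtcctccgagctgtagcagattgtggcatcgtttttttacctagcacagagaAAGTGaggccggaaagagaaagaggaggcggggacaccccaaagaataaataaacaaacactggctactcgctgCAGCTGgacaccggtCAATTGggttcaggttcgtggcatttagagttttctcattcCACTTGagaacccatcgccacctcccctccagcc
Gpnmb: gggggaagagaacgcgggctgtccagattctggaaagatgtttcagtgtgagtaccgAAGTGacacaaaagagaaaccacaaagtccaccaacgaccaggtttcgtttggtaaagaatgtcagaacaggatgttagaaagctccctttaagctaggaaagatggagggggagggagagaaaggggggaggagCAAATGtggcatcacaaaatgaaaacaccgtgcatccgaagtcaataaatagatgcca

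Each of the 3 promoters held an E-box, as did 66% of the 27025 promoters in the table over the same length. Dcpp1 had 1, at 139 bases before the start, and Gpnmb 1, at 58 bases. Gfra1 had 3, at 90, 75 and 34 bases, and the last shares its letters with an NKX match on the other strand. A GATA match stood in Dcpp1 alone (23.0% of all promoters), and NKX matches in Gfra1 and Gpnmb (40.8%). The AP-1 motif TGANTCA (6.87%) and the TATA motif TATAAA (13.0%) had no match in the 3 windows, which says only that these letters are not there. A match is a description of the letters and not evidence of binding.

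Dcpp1 encodes a demilune cell and parotid protein, a small secreted protein known from salivary glands, and it had the lowest p of the interaction. It was 5.23, 5.33 and 5.73 in WT_LV and 8.59, 9.15 and 9.80 in WT_RV. In KO it was 3.91, 4.18 and 3.98 in the left ventricle and 4.22, 3.99 and 3.88 in the right. The WT chambers were far apart, the KO chambers overlapped, and every KO array lay below every WT array of either chamber. In WT the right ventricle was higher than the left by 3.75 (adjusted p = 3.78e-06, limma), and in KO the chambers differed by 0.0067 (95% interval -0.48 to 0.50). KO was lower by unequal amounts, with a difference of -1.41 (SE 0.23, adjusted p = 0.000693) in the left and of -5.15 (adjusted p = 1.41e-08) in the right. The interaction was -3.74 (SE 0.32, 95% interval -4.44 to -3.05, adjusted p = 0.00033), and without WT_RV replicate 3, which was its highest array, it was -3.43 (adjusted p = 7.96e-05). The KO arrays, at 3.88 to 4.22, were dim in both chambers, where the median of all values was 5.67. A step between the KO chambers may be too low to read, so the interaction largely restates the step in WT. In bulk tissue fewer cells of a type and less RNA per cell cannot be told apart.

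Dcpp1 has 1 probe set of its own, and a second probe set of the array is shared by Dcpp1, Dcpp2 and Dcpp3, near-identical neighbours whose signals it cannot separate. The shared probe set read 7.30, 8.47 and 7.65 in WT_LV, 10.80, 11.26 and 11.57 in WT_RV, 3.99, 4.26 and 4.13 in KO_LV and 4.41, 4.13 and 4.70 in KO_RV. It had the pattern of Dcpp1 at a higher signal, with an interaction of -3.12 (adjusted p = 0.0372, limma over all 45037 non-control probe sets). In that fit 3 probe sets were called, and the others were those of Dcpp1 and Tcf24. The probe set assigned to Dcpp3 alone had group means of 6.45, 6.68, 6.23 and 6.23 in WT_LV, WT_RV, KO_LV and KO_RV. In the limma fit over genes its interaction was -0.22 (adjusted p = 0.384). Its KO minus WT difference in the fit over genes was -0.22 (adjusted p = 0.0481) in the left and -0.45 (adjusted p = 0.00405) in the right. Because the KO strain differs from CD1 across the genome, sequence differences under these probes and RNA abundance cannot be told apart for a difference between genotypes, while a difference between the WT chambers is within 1 strain.

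Of 17 salivary and demilune genes, a list drawn up with Dcpp1 known, 11 were measured and Dcpp1 was the 1 called. The other 10 had interactions between -0.27 and 0.21. Pip, a secreted salivary and lacrimal protein, lay between 3.46 and 3.93 over the 12 arrays, and Aqp5, the water channel of secretory acini, between 4.42 and 4.92. Neither showed the step between the WT chambers that Dcpp1 did.

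**Figure D2:**
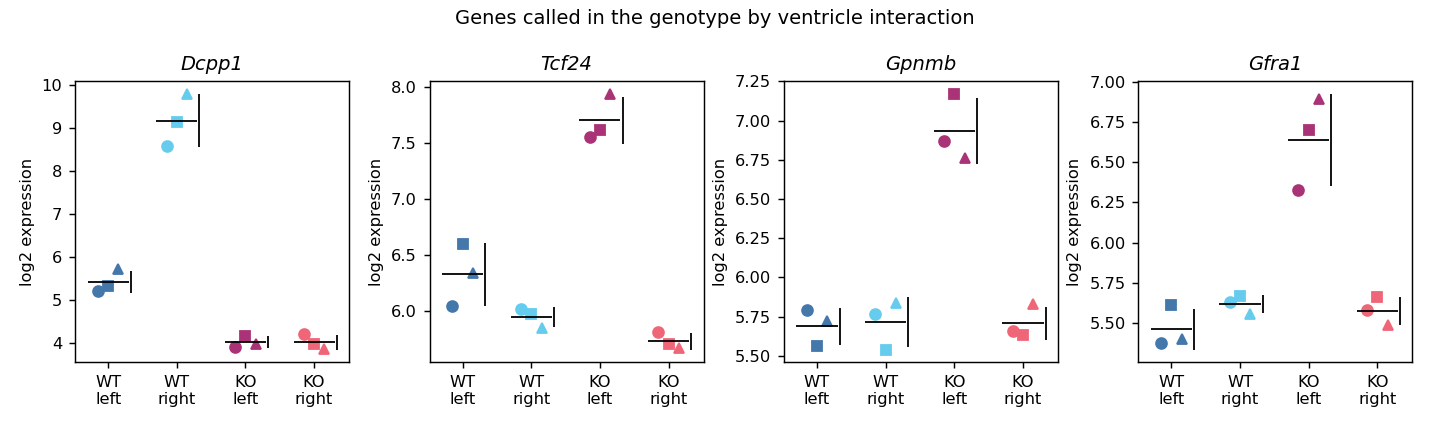
Log2 signal of the 4 called genes on each array, by group (WT or KO, LV or RV), with points for arrays (shapes mark replicates), horizontal bars for group means and vertical bars for 1 SD either side (n = 3). Dcpp1 was high in WT_RV alone, at 8.59 to 9.80, and Tcf24, Gpnmb and Gfra1 were high in KO_LV.

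Tcf24, a basic helix-loop-helix transcription factor, was 6.04, 6.60 and 6.34 in WT_LV and 6.02, 5.97 and 5.85 in WT_RV. It was 7.55, 7.62 and 7.94 in KO_LV and 5.81, 5.70 and 5.67 in KO_RV. The KO_LV arrays stood above the other 9, and in the right ventricle KO lay just below WT. The genotype difference was 1.38 in the left (adjusted p = 1.88e-05) and -0.22 in the right (95% interval -0.51 to 0.07, adjusted p = 0.317). The interaction was -1.60 (SE 0.19, 95% interval -2.0 to -1.19, adjusted p = 0.00784, limma), and without WT_RV replicate 3 its adjusted p was 0.0109. Right minus left was -0.38 in WT (adjusted p = 0.181) and -1.98 in KO (adjusted p = 5.28e-06). Tcf24 was the 1 called of 27 measured genes listed as cardiac transcription factors. That list was drawn up with Tcf24 known, so this is no separate result. With a term for the poly-A controls (high or low) the interaction was -1.50 and the call ended, at an adjusted p of 0.122.

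Gpnmb encodes a transmembrane glycoprotein of lysosomes in macrophages, osteoclasts and melanocytes. It was 5.79, 5.56 and 5.72 in WT_LV, 5.77, 5.54 and 5.84 in WT_RV and 5.66, 5.63 and 5.83 in KO_RV. In KO_LV it was 6.87, 7.17 and 6.76, above all of these. KO exceeded WT by 1.24 in the left (adjusted p = 1.55e-05), and the difference was -0.01 in the right (95% interval -0.27 to 0.25). The interaction was -1.25 (SE 0.17, 95% interval -1.61 to -0.89, adjusted p = 0.0208), and -1.19 without WT_RV replicate 3 (adjusted p = 0.0219). A second probe set of the gene was dim, at a mean of 3.45, with an interaction of -0.12. When the probe sets were averaged the interaction was -0.69, at an adjusted p of 0.163. Of 20 measured lysosomal and melanocyte-linked genes, a list drawn up with Gpnmb known, Gpnmb was the 1 called. Mitf, the transcription factor that regulates Gpnmb in melanocytes and osteoclasts, had an interaction of -0.05.

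Gfra1, the GPI-anchored co-receptor that binds GDNF and presents it to the RET receptor, followed the same pattern. It was 5.38, 5.61 and 5.40 in WT_LV, 5.63, 5.67 and 5.56 in WT_RV and 5.58, 5.66 and 5.49 in KO_RV, against 6.33, 6.70 and 6.89 in KO_LV. KO minus WT was 1.18 in the left (adjusted p = 3.54e-05) and -0.04 in the right (95% interval -0.31 to 0.22). The interaction was -1.22 (SE 0.17, 95% interval -1.60 to -0.84, adjusted p = 0.0332), and -1.25 without WT_RV replicate 3. A pair of dimmer probe sets, at means of 5.06 and 3.70, had interactions of -0.15 and -0.13, and the average over the 3 was -0.50 (adjusted p = 0.334). Of 13 genes of the GDNF family and RET signalling, a list drawn up with Gfra1 known, no other was called. Gdnf was dim, at a mean of 3.83, and Ret, at 5.66, had an interaction of -0.17.

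**Figure D3:**
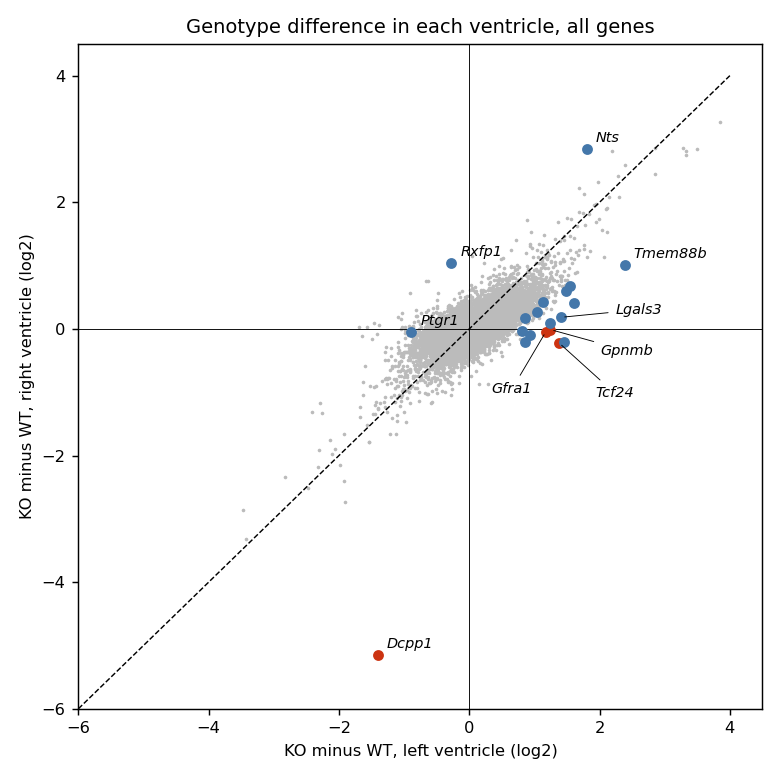
KO minus WT in the left ventricle (x) against the right ventricle (y) for all 18194 genes in log2 units, where the dashed diagonal marks equal differences, red points are the 4 called genes and blue points the 16 other genes with the smallest interaction p. Tcf24, Gpnmb and Gfra1 sit at 1.18 to 1.38 on x and near 0 on y, while Dcpp1 sits at -1.41 and -5.15.

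The 16 genes with the next smallest p did not pass with all arrays, at adjusted p of 0.0582 to 0.314, and are given as values. With the called genes they make 20, of which 17 had a negative interaction, where 11004 of all 18194 genes did. For 13 of the 20 KO_LV was the group farthest from the other 3, for 4 WT_LV, for 2 WT_RV and for 1 KO_RV. Over all 18194 genes WT_LV was farthest for 6129, KO_LV for 5268, WT_RV for 4410 and KO_RV for 2387. The genes with the smallest p thus mostly set the KO left ventricle apart, but this was chosen by the same fit and has no test of its own.

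Of the 16, Lgals3 and Csf1r are in the macrophage list. Cybb, Csf2rb, Mpeg1 and Olr1, known from myeloid cells but Olr1 not from these alone, are placed beside them here after their p was seen. Lgals3, the galectin of activated macrophages, was 6.02, 6.22 and 6.58 in WT_LV, 6.04, 5.85 and 5.90 in WT_RV, 7.62, 7.82 and 7.61 in KO_LV and 5.92, 6.07 and 6.35 in KO_RV. Its interaction was -1.23 (adjusted p = 0.0582). Cybb, the catalytic subunit of the phagocyte NADPH oxidase, was 5.23, 5.16 and 5.67 in WT_LV, 5.68, 5.70 and 5.37 in WT_RV, 6.81, 7.06 and 7.02 in KO_LV and 5.78, 6.01 and 6.17 in KO_RV. For both genes the KO_LV arrays lay above all others. Csf2rb, the shared beta chain of the receptors for GM-CSF, IL-3 and IL-5, had an interaction of -1.03 (adjusted p = 0.0582), and its other probe set one of 0.11. Csf1r, the macrophage colony-stimulating factor receptor, was 10.50, 10.68 and 10.58 in KO_LV against 9.35 to 9.60 in the WT arrays and 9.81, 10.08 and 9.81 in KO_RV. Its interaction was -0.71 (adjusted p = 0.211), with KO minus WT at 1.13 in the left and 0.43 in the right. Mpeg1, a pore-forming protein of macrophages, had an interaction of -0.77 and Olr1, a scavenger receptor for oxidised lipoprotein, of -1.14. Without WT_RV replicate 3 the adjusted p of these 6 genes lay between 0.022 and 0.0258.

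The macrophage and leukocyte list, which holds Csf1r and Lgals3 of these genes, was highest on the same arrays. Its mean level over 21 measured genes was 7.48 to 7.60 on the KO_LV arrays, 6.95 to 7.26 on KO_RV, 6.89 to 7.01 on WT_LV and 6.78 to 6.95 on WT_RV. All 21 members had a negative interaction, where 11004 of all 18194 genes did, with a median of -0.30 against -0.06 over all genes. Of the 21, 9 had an unadjusted p under 0.05, where 9.16% of all genes did in that direction. None was called with all arrays, and 6 were called lower without WT_RV replicate 3, where 4.45% of all genes were. KO was higher than WT for 14 of the 21 in the left ventricle, where 18.6% of all genes were, and for 4 in the right, where 4.61% were. Ptprc, the pan-leukocyte antigen CD45, was 6.10, 6.71 and 6.46 in KO_LV, 5.46, 5.62 and 5.90 in KO_RV and between 4.5 and 5.15 in WT. C1qa, a complement subunit made by tissue macrophages, was 7.75, 7.74 and 7.83 in KO_LV and between 6.96 and 7.53 elsewhere. Gpnmb, high in the same group, is also a macrophage gene, and the part of these cells in its interaction was not tested.

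Rxfp1, the receptor for the hormone relaxin, was the gene of smallest p with a positive interaction. It was 4.16, 4.56 and 4.64 in WT_LV, 4.83, 5.20 and 4.93 in WT_RV and 4.15, 4.18 and 4.21 in KO_LV, but 6.30, 5.83 and 5.93 in KO_RV. The KO_RV arrays stood above the other 9. KO minus WT was -0.27 in the left and 1.03 in the right (adjusted p = 0.00068), and the interaction was 1.31 (adjusted p = 0.0582, and 0.0228 without WT_RV replicate 3). Nts, the neuropeptide neurotensin, was 7.94, 8.16 and 8.0 in WT_LV and 7.17, 6.94 and 7.43 in WT_RV. In KO it was 9.78, 9.78 and 9.96 in the left and 9.98, 9.82 and 10.27 in the right, so KO was higher in both, by 1.81 and 2.84. The interaction of Nts was 1.04 (adjusted p = 0.15). Ptgr1, a reductase that inactivates prostaglandins and leukotriene B4, was lower in KO_LV, at 8.76, 8.82 and 8.74, than on the other 9 arrays, which read 9.34 to 9.76. Its interaction was 0.84 (adjusted p = 0.148).

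A pair of BMP family ligands stood among the 16. Bmp2, which is made in atrioventricular and outflow myocardium and acts on the cushions, was 6.44, 6.71 and 6.49 in WT_LV and 7.44, 7.31 and 6.99 in WT_RV. In KO it was 8.14, 8.10 and 8.02 in the left and 7.77, 8.06 and 7.96 in the right, so the step between the WT chambers was not seen in KO. Its interaction was -0.86 (adjusted p = 0.211, and 0.0219 without WT_RV replicate 3). Gdf10 was 6.28, 7.29 and 6.10 in KO_LV, against 4.95 to 5.80 elsewhere, with an interaction of -1.65 (adjusted p = 0.211). Its KO_LV arrays were the most spread, since replicate 2 was over 1 unit above the others.

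Tmem88b, the paralogue of a Wnt inhibitor of heart muscle differentiation, was 7.86, 8.11 and 8.34 in KO_LV and 6.54, 6.41 and 6.58 in KO_RV. In WT it lay between 5.34 and 5.92. KO was higher by 2.38 in the left and by 1.01 in the right, and the interaction was -1.38 (adjusted p = 0.0582). Spata13, an exchange factor for the small GTPases Rac and Cdc42, was lowest in WT_LV, at 7.51 to 7.64 against 8.22 to 9.25 elsewhere, with an interaction of -0.89. A second probe set also read lowest in WT_LV, with an interaction of -0.42, and a dim one, at a mean of 3.41, had 0.38. Dusp26 (a phosphatase), Slfn5 (an interferon-inducible protein) and Col4a6 (a basement membrane collagen chain) had interactions of -1.06, -0.83 and -0.68, all at an adjusted p of 0.279 or 0.314. A second probe set of Slfn5, of like brightness, had -0.06 and a dim one -0.13, while the second probe set of Col4a6 had -0.51.

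**Figure D4:**
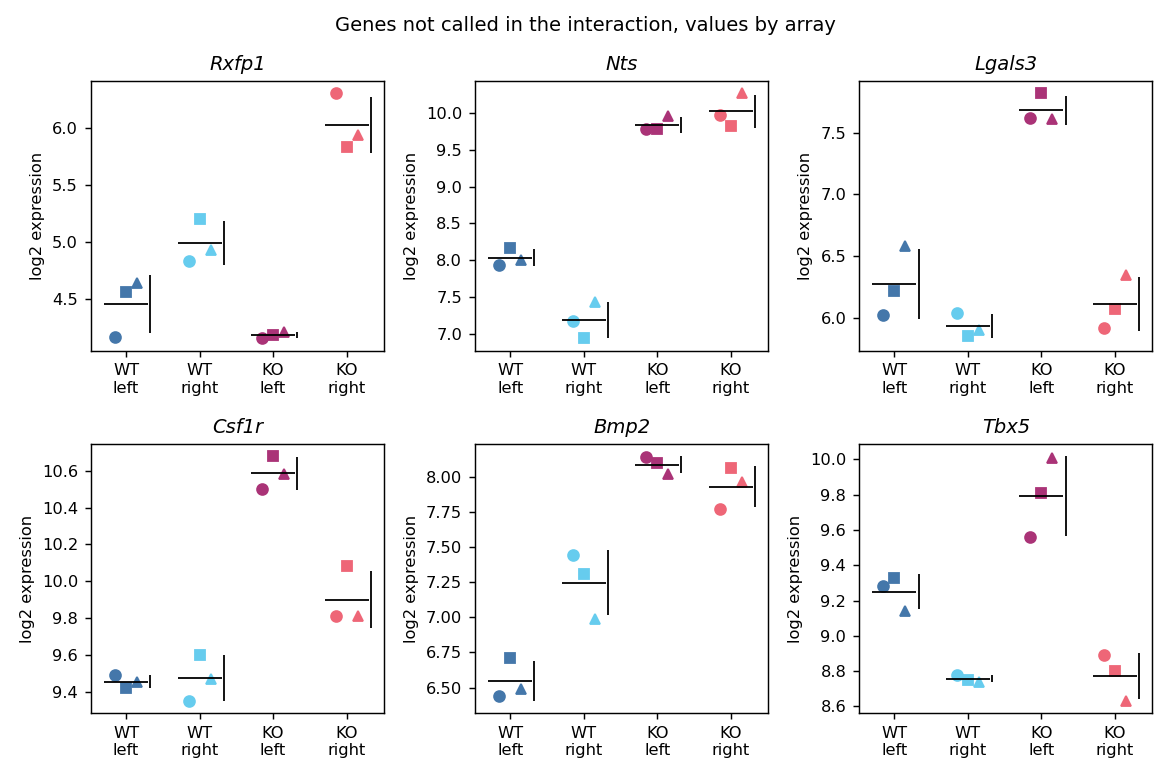
Log2 signal on each array of 5 of the genes with the next smallest interaction p and of Tbx5, none of them called with all arrays, by group, with points for arrays (shapes mark replicates), horizontal bars for group means and vertical bars for 1 SD either side (n = 3). Lgals3 and Csf1r were highest in KO_LV, Rxfp1 was highest in KO_RV (5.83 to 6.30), and Bmp2 was lowest in WT_LV (6.44 to 6.71).

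Nos3 itself was 8.36, 8.39 and 8.30 in WT_LV and 8.72, 8.94 and 8.37 in WT_RV, against 7.95, 8.02 and 7.86 in KO_LV and 8.23, 8.04 and 7.77 in KO_RV. KO minus WT was -0.41 in the left (adjusted p = 0.0376) and -0.66 in the right (adjusted p = 0.00983), while the KO arrays still read 7.77 to 8.23. Which exons the probe set covers is not given in the sources used here, so it may lie outside the deleted part. The interaction of Nos3 was -0.26 (95% interval -0.67 to 0.16, adjusted p = 0.555). Of 27 measured genes of nitric oxide and cGMP signalling none was called and 4 had a negative interaction at an unadjusted p under 0.05 (9.16% of all genes), with a median of -0.09. Without WT_RV replicate 3, 2 were called lower (4.45% of all genes), Npr3 and Pde2a. Those with the smallest p were Pde2a, a cGMP-stimulated phosphodiesterase, at -0.49, and Cav1, the caveolar protein that holds endothelial nitric oxide synthase inactive, at -0.48.

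No gene of the left ventricle list or of the right ventricle and outflow list was called in the interaction with all arrays. Of 11 measured left ventricle genes 10 had a negative interaction, where 11004 of all 18194 genes did, and the median was -0.38. The values were -0.34 for Hand1, -0.53 for Tbx5, -0.61 for Cited1, -0.94 for Gja5, -0.38 for Sema3a, -0.42 for Slit2, -0.27 for Slit3, 0.28 for Fgf12, -0.38 for Pcsk6, -0.30 for Kcnj3 and -0.02 for Nppa, with adjusted p between 0.314 and 0.97. The list median was -0.54 without WT_RV replicate 3, and Cited1, a transcriptional coactivator, was called lower (adjusted p = 0.0465). Tbx5, a T-box factor of the first heart field, was 9.28, 9.33 and 9.14 in WT_LV, 8.78, 8.75 and 8.74 in WT_RV, 9.56, 9.81 and 10.01 in KO_LV and 8.89, 8.80 and 8.63 in KO_RV. The left ventricle was higher in both genotypes without overlap. Right minus left was -0.49 in WT (adjusted p = 0.0564) and -1.02 in KO (adjusted p = 0.000242), and the difference between these, at an adjusted p of 0.314, did not pass. Gja5, the gap junction protein connexin 40 of trabeculae and the conduction system, was 5.98, 5.48 and 6.67 in KO_LV, 4.64, 4.67 and 4.86 in KO_RV and between 4.80 and 5.42 in WT. Nppa, the atrial natriuretic peptide of trabecular muscle, was lower in the right ventricle by about the same amount, -0.59 in WT (adjusted p = 0.0499) and -0.61 in KO (adjusted p = 0.037).

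Right ventricle and outflow genes had a median of -0.15 over 13 measured. Tdgf1 (mean 2.91), Fgf10 (3.97), Tbx1 (4.45), Isl1 (4.56) and Fgf8 (4.61) were dim, where the median of all values was 5.67. So was Fgf12 (4.05) of the left ventricle list, and interactions of such genes may be too low to read. The interactions were -0.21 for Hand2, -0.15 for Isl1, 0.25 for Fgf8, -0.48 for Fgf10, -0.13 for Tbx1, -0.18 for Mef2c, 0.07 for Sema3c, -0.16 for Irx1, -0.08 for Irx2, -0.27 for Rspo3, 0.13 for Ckm, 0.09 for Tdgf1 and -0.46 for Wnt11. Sema3c was 7.82, 7.76 and 8.0 in KO_LV and 8.73, 8.83 and 8.95 in KO_RV. Its step from left to right was 0.90 in WT (adjusted p = 0.000991) and 0.98 in KO (adjusted p = 0.000214). Pcsk6, the proprotein convertase that processes Nodal and BMP precursors, was 6.32, 6.41 and 6.39 in WT_LV and 7.84, 7.63 and 7.46 in WT_RV. In KO it was 6.55, 6.60 and 6.54 in the left and 7.29, 7.70 and 7.37 in the right. Although it stands in the left ventricle list, it was higher in the right in both genotypes, by 1.27 and 0.89. Of that list, Hand1 (0.10), Sema3a (0.12), Slit2 (0.24) and Kcnj3 (0.06) also had right minus left above 0 in WT, though not called. The remaining members were below 0 in WT. The list median of right minus left was -0.05 in WT and -0.26 in KO, so as a set the list barely marked the left ventricle in WT.

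Many signalling and structural lists had negative medians, because KO minus WT was further above 0 in the left ventricle than in the right. For BMP and TGF-beta signalling the median was -0.29 over 30 genes, of which 22 were negative, where 11004 of all 18194 genes were. Of the 30, 11 had a negative interaction at an unadjusted p under 0.05. Foxc1, listed as a cardiac transcription factor, and Tgfb1, a TGF-beta ligand, both had -0.62. For Wnt signalling it was -0.33 over 29 genes, with 9 at that level, and for Notch signalling -0.21 over 20, with 3. Cardiac transcription factors had a median of -0.37 over 27 genes, with 11 at that level, among them Tcf24 itself and Tbx20, the last at -0.46. The share over all genes was 9.16%, and with all arrays no gene of these lists but Tcf24 was called. Without WT_RV replicate 3, 10 genes of the BMP and TGF-beta list, 4 of the Wnt list and 2 of the Notch list were called lower. So were 5 of the transcription factors, Tcf24 among them, where 4.45% of all genes were. A dimmer probe set of Tgfb1 had 0.05. Sfrp5, a secreted Wnt inhibitor, had -0.74 and, on a second probe set of like brightness, 0.15, and Maml1, a coactivator of Notch, -0.40.

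Wall and matrix lists lay in the same direction. The lists share genes, so they are not separate results. Nppa, Gja5, Cited1 and Slit2 are in both the trabecular and the left ventricle list. Tbx20 is in both the compact and the transcription factor list, and Irx3 and Irx5 are in both the trabecular and the transcription factor list. Compact myocardium had a median of -0.31 over 11 genes, of which 11 were negative, and trabecular myocardium -0.39 over 11. Among all 18194 genes 11004 were negative. Ldb3, a Z-disc protein, had -0.47 and Fgfr1, a receptor for growth signals from the epicardium, -0.58. Dimmer probe sets had -0.52 and -0.65 for Ldb3 and 0.02 and -0.10 for Fgfr1. Cushion and cardiac jelly matrix had a median of -0.46 over 21 genes, 19 of them negative, with 7 lower and 1 higher at an unadjusted p under 0.05. Fn1, which encodes fibronectin, had -0.67 and Adamts9, a protease that cleaves versican, -0.48. Their dimmer probe sets went the other way, at 0.95 for Fn1 and 0.39 and 0.20 for Adamts9. Sarcomere genes had a median of -0.11 over 26 and differed little from all genes at -0.06. None of these genes was called with all arrays, and without WT_RV replicate 3, 3 compact, 2 trabecular, 4 cushion and 1 sarcomere gene, Ldb3, were called lower, where 4.45% of all genes were.

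Vessel and endocardial lists had medians of -0.29 over 22 and -0.28 over 11 genes. Vwf, the von Willebrand factor of endothelium, was 6.20, 5.81 and 6.27 in WT_LV and 7.32, 7.41 and 6.67 in WT_RV. In KO it was 7.38, 7.64 and 7.65 in the left and 7.94, 7.78 and 7.77 in the right. KO was above WT by 1.46 in the left and 0.70 in the right, and the interaction was -0.77 (-1.0 without WT_RV replicate 3, adjusted p = 0.0234). Nfatc1, the calcineurin-dependent factor of valve endocardium, was 8.54, 8.67 and 8.76 in KO_LV, 8.34, 8.30 and 8.17 in KO_RV, 7.55, 7.55 and 7.16 in WT_LV and 7.94, 7.80 and 7.17 in WT_RV. Its interaction was -0.60, and that of Npr3, a natriuretic peptide clearance receptor of endocardium, -0.47. For Vwf and Nfatc1 WT_RV replicate 3 was the lowest array of its group.

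Oxidative phosphorylation lay the other way. Of 35 oxidative phosphorylation genes 7 had a negative interaction, where 11004 of all 18194 genes did, and the median was 0.15. A positive interaction at an unadjusted p under 0.05 was measured for 5, where 4.79% of all genes had it. Fatty acid oxidation was mixed, with a median of 0.10 over 23 genes, of which 10 were negative and 4 had a positive interaction at that level. Its median was 0.025 without WT_RV replicate 3, and that of oxidative phosphorylation 0.16. The median was 0.13 over 18 cytosolic ribosomal proteins, with 0 at that level. Cox7a1, the heart and muscle form of a cytochrome c oxidase subunit, was 11.29, 11.13 and 11.31 in KO_LV, 11.69, 11.61 and 12.37 in KO_RV, 12.41, 12.53 and 12.55 in WT_LV and 12.23, 12.06 and 12.86 in WT_RV. Its interaction was 0.76 (adjusted p = 0.314). In both KO_RV and WT_RV replicate 3 was the highest array. Sdhd, a subunit of succinate dehydrogenase, had 0.33 and Etfa, an electron carrier of fatty acid oxidation, 0.37. Without WT_RV replicate 3, 4 oxidative phosphorylation and 2 fatty acid oxidation genes were called higher, where 2.74% of all genes were. Cox7a1 (adjusted p = 0.0335, limma), Sdhd (0.0492) and Etfa (0.0456) were called there, and none of them with all arrays.

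Some lists varied between the libraries of a group. Over 6 nuclear noncoding transcripts the median interaction was 0.84, the largest of any list, and none was called with or without WT_RV replicate 3. Their mean level ran from 9.80 to 10.79 on the WT_LV arrays, from 9.65 to 9.997 on WT_RV, from 8.48 to 9.89 on KO_LV and from 9.48 to 9.91 on KO_RV. The highest was WT_LV replicate 2 and the lowest KO_LV replicate 3. Alb, the albumin gene of liver, lay between 8.33 and 10.57 in WT_LV, 8.72 and 11.57 in WT_RV, 6.10 and 7.78 in KO_LV and 7.99 and 9.32 in KO_RV. Afp, a fetal liver gene, had means of 10.09, 10.53, 7.67 and 9.22 in WT_LV, WT_RV, KO_LV and KO_RV. The means of Alb and Afp were thus both lowest in KO_LV. The median interaction over 15 liver, gut and lung genes was -0.04, with 9 of them negative, where 11004 of all 18194 genes were, and it does not describe single genes. The part of these transcripts and tissues in the list results was not tested.

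**Figure D5:**
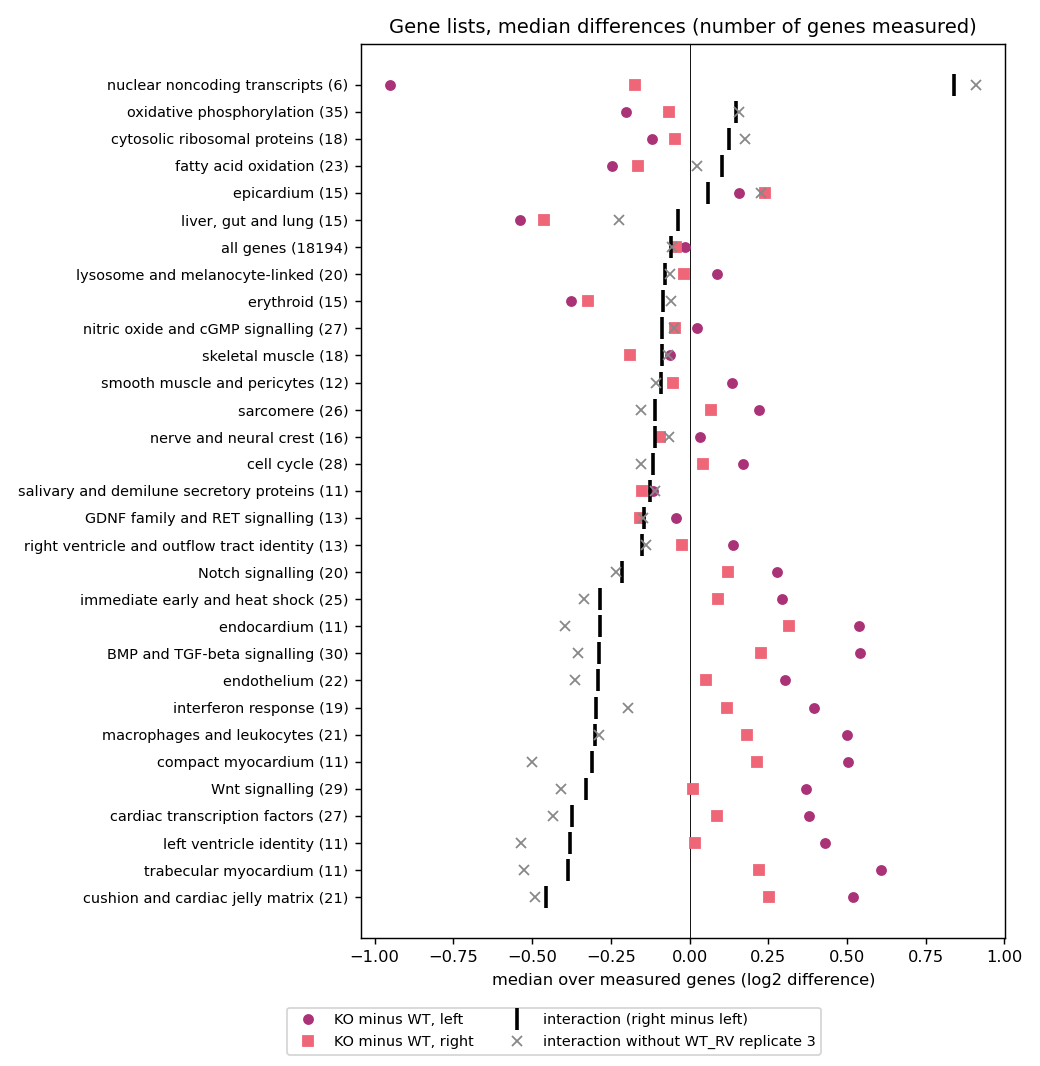
Median over the measured genes of each list (number in brackets) of KO minus WT in the left ventricle (circles), in the right ventricle (squares), of the interaction (bars) and of the interaction without WT_RV replicate 3 (crosses), in log2 units. The interaction medians ran from -0.46 for cushion and cardiac jelly matrix to 0.84 for 6 nuclear noncoding transcripts, with all genes at -0.06.

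Among genes called without WT_RV replicate 3 but not with all arrays, Plxnc1 and Cd93 had the smallest p, and they and Kcne3 were chosen after their values were seen. Plxnc1, a semaphorin receptor, was 8.27, 8.31 and 8.12 in WT_LV and 9.13, 9.10 and 8.07 in WT_RV. In KO it was 9.25, 9.36 and 9.25 in the left and 9.17, 9.14 and 9.05 in the right. Cd93, a C-type lectin-like receptor of endothelium, was 10.91, 10.67 and 10.85 in WT_LV, 11.69, 11.60 and 10.78 in WT_RV, 11.95, 11.95 and 12.07 in KO_LV and 11.76, 11.73 and 11.59 in KO_RV. In both genes the third WT_RV array was level with WT_LV and the other WT_RV arrays were nearer to KO. The interaction was -0.70 for Plxnc1 with all arrays (adjusted p = 0.327) and -1.05 without that array (adjusted p = 0.00766). For Cd93 it was -0.84 (adjusted p = 0.314) and -1.13 (adjusted p = 0.00766). Kcne3, a potassium channel subunit, showed the reverse, at 6.86, 6.57 and 7.65 in WT_RV, 7.53, 7.64 and 7.53 in WT_LV and 7.32 to 7.77 in KO. Its interaction was 0.73 with all arrays and 1.04 without WT_RV replicate 3.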

How the data were processed

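The authors deposited log2 expression values of 45101 Affymetrix probe sets for 12 arrays, computed by RMA, per the submitters' processing notes, from 100 ng of total RNA per array, per the labels' protocols. RMA gives all arrays a common distribution, so a shift of most genes together would not be seen. Values ran from 2.42 to 15.19, and the number of arrays limits the precision. Groups came from the sample titles.

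Probe sets with 1 gene symbol in the platform annotation (34958, while 932 had several and 9211 none) named 18194 genes, and for the 9012 genes with several the one with the highest mean was used. Of the 34958, 34754 matched RefSeq (GRCm38.p6) by gene ID. One limma model (lmFit and eBayes, limma 3.58.1, R 4.3.3) gave each of the 4 groups a mean, and the interaction, the genotype differences by ventricle and the ventricle differences by genotype were contrasts of it. Benjamini-Hochberg adjustment ran over all genes with a threshold of 0.05. Promoters were searched in Python 3.11.15 and figures drawn with matplotlib 3.10.9.

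The members, lists and tests were chosen with earlier results of these data known. Named were Nos3, the called genes, those with the next smallest p up to 20 (predicted and clone names passed over), all members of the left and right ventricle lists, up to 2 genes of smallest p in each other list and markers of cell types. Lists were described by counts and medians, with no test. Other settings were a filter on dim genes, normalizations, variance models, array weights, the replicate number as a block, averaged or separate probe sets, other thresholds, each array left out, and, added after the data were seen, terms for the poly-A controls and all probe sets. Deviations of same-numbered left and right ventricle arrays from their group means correlated at 0.23, -0.01 and 0.15 in WT and 0.21, 0.29 and 0.26 in KO. Pairs were to be assumed where every correlation was over 0.1, and 1 of the 6 was not, so the numbers were treated as names.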

Additional observations from a re-analysis of the deposited data

Results flagged for a closer look

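For 4 genes the difference between KO and WT itself differed between the ventricles, by limma's test of the interaction. Dcpp1 was lower in KO in both chambers, further in the right, with an interaction of -3.74. Its KO signal was dim in both, so that interaction largely restates the step between the WT chambers. The others were higher in KO in the left ventricle and not called between genotypes in the right, with interactions of -1.60 for Tcf24, -1.25 for Gpnmb and -1.22 for Gfra1. For these 3 genes every KO_LV array lay above the other 9, which the choice of genes on the same arrays favours, so it is no further support. Dcpp1 was called under each of the 24 alternatives that gave it a value, with adjusted p from 1.22e-05 to 0.00575. Tcf24 lost its call under 2 of 25 alternatives, Gpnmb kept it under 14 of 25 and Gfra1 under 7 of 25, the last with adjusted p from 0.00336 to 0.334.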

How the results depend on the processing

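With all arrays 0 genes were called higher and 4 lower in the interaction. Higher calls were 1 at an adjusted p under 0.10, 1 with an intensity trend and robust variances, 1 with the replicate number as a random block and 517 with array weights. Lower calls were 2 at an adjusted p under 0.01, 8 at 0.10, 2 after quantile normalization once more, 847 with array weights, 1 with the replicate number as a fixed block, 8 with it as a random block, 2 with probe sets averaged, 2 with every probe set tested, 2 without WT_LV replicate 2 and KO_LV replicate 3 together and 1 with a term for high or low poly-A controls. With the fixed block Tcf24 (adjusted p = 0.0728), Gpnmb (0.0777) and Gfra1 (0.091) lost their calls at interactions as without it (-1.60, -1.25 and -1.22). Leaving out each array in turn gave 0 to 499 higher and 2 to 810 lower, the most without WT_RV replicate 3. The cause was not tested. Every WT_LV array had high poly-A controls and every KO array low ones, so that term rests on WT_RV replicate 3 alone.

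Signs turned for uncalled genes: with the high or low poly-A term Nos3 (0.05), Slit2 (0.21), Kcnj3 (0.32), Nppa (0.28), Mef2c (0.21) and Irx2 (0.03), and with the linear term Nppa (0.043). With probe sets averaged Slit2 (0.072), Fn1 (0.14) and Adamts9 (0.036) turned, and without that pair of arrays Nppa (0.005) and Rspo3 (0.032). Leaving out an array moved Nppa from -0.17 to 0.098, Mef2c from -0.37 to 0.022, Sema3c from -0.013 to 0.14 and Ckm from -0.12 to 0.33. The cause of these turns was not tested.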

Other observations

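Markers of tissues beside the ventricular wall gave a few further values. Tnni2, a fast skeletal troponin, was 8.36, 8.05 and 8.23 in WT_LV, 8.97, 9.16 and 9.98 in WT_RV, 8.21, 8.08 and 8.47 in KO_LV and 10.28, 10.36 and 10.93 in KO_RV. It was higher in the right ventricle in both genotypes without overlap, and its interaction was 1.11 (1.42 without WT_RV replicate 3, adjusted p = 0.022, limma). Myod1, the skeletal muscle determination factor, lay between 4.06 and 4.49 on all arrays, and the median interaction over 18 skeletal muscle genes was -0.09. Myog, another skeletal muscle factor, was brighter. It was 6.62, 5.72 and 5.67 in WT_LV and 5.80, 5.54 and 6.01 in WT_RV, against 4.65, 5.64 and 4.77 in KO_LV and 5.10, 4.95 and 5.09 in KO_RV. The part of skeletal muscle tissue in these values was not tested.

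Ednrb, the endothelin receptor of neural crest and endothelial cells, was 9.21, 9.22 and 9.01 in WT_LV, 9.98, 9.95 and 9.35 in WT_RV, 10.62, 10.58 and 10.80 in KO_LV and 10.73, 10.53 and 10.59 in KO_RV, with an interaction of -0.66. Fabp7, a fatty acid binding protein of glia and neural crest, had 1.12 and was lower in KO, at 6.43 to 7.50 against 7.76 to 9.53 in WT. Tbx18, an epicardial T-box factor, was 10.28, 10.26 and 10.42 in KO_LV and 9.51, 9.39 and 9.49 in KO_RV, with an interaction of -0.42 where the median over 15 epicardial genes was 0.06.

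Fos, an immediate early gene, was 7.99, 8.24 and 8.39 in KO_LV, 7.63, 7.27 and 7.04 in KO_RV, 6.99, 6.98 and 6.78 in WT_LV and 6.99, 7.03 and 6.59 in WT_RV. Its interaction was -0.85. Of 25 immediate early and heat shock genes 24 were negative, where 11004 of all 18194 genes were, with a median of -0.28. Igtp, an interferon-induced GTPase, had -0.61, and the interferon list a median of -0.30 over 19 genes. None of the genes in these paragraphs was called with all arrays.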
